A study of Mus musculus with 2 samples.

Results

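The 9 genes described here are members of the Notch pathway: the receptors Notch1, Notch2 and Notch3, the ligands Jag1, Jag2 and Dll1, and the target genes Hes1, Hes5 and Hey1. They were taken by symbol from 27998 genes listed in a single-cell RNA-seq library of the E12.0 mouse mandibular epithelium and from 31053 genes listed in a library of the E9.5 mandibular arch, and all 9 were present in both lists. Both libraries came from K14Cre;R26mT/mG embryos, in which a Cre recombinase driven by the keratin 14 promoter switches a membrane reporter from tdTomato to GFP, so that GFP marks keratin 14-expressing epithelium and its descendants. The E12.0 library held cells of 6 pooled embryos, whose epithelium was peeled off after Dispase treatment, dissociated in TrypLE and sorted for GFP. The E9.5 library held unsorted cells of whole mandibular arches from 8 pooled embryos, dissociated directly in TrypLE. Each pool was a single litter and each stage has 1 library, so no difference here has a replicate check, no test was possible, and stage cannot be told apart from sorting, dissociation or the version of the counting software. Intervals in the text are exact 95% intervals that cover counting error only.

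Notch signals pass between touching cells. A Jagged or Delta-like ligand on one cell binds a Notch receptor on its neighbour, the receptor is cut by an ADAM protease and by gamma-secretase, and its intracellular part enters the nucleus and joins the DNA-binding protein RBPJ to switch on genes of the Hes and Hey families, which encode transcriptional repressors. Ligand and receptor made in the same cell can block each other. In stratifying epithelia such as the epidermis, Notch signals are known for their part in the step from the basal layer to the suprabasal layers, and the periderm is the flat outermost layer that covers embryonic epithelium. In embryonic blood vessels, Notch1 and its ligand Dll4 are known for their part in the choice of arterial fate.

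After cells with fewer than 200 or more than 5500 genes, or with over 10% mitochondrial UMIs, were set aside, 11355 of 11663 barcodes were kept from the E12.0 library and 12744 of 14293 from that of E9.5. A UMI marks 1 captured RNA molecule, with a median per cell of 6349 in the E12.0 library and 13460.5 in the E9.5 library. The libraries shared 51 cell barcodes. The E12.0 library fitted its label: epithelial markers (Epcam, Cdh1, Krt8 and Krt18) summed to 967 CPM (the per-million share of a gene in all UMIs of a group of cells) in the periderm-gated cells described below and 637 CPM in the others, summed markers of mesenchyme reached at most 5.27 CPM in any zone, those of endothelium at most 1.87 CPM, and the 4 embryonic globins had no UMI. The E9.5 cells, which hold several tissues, were split by marker genes.

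Periderm-rich cells at E12.0 were chosen by a gate of at least 3 UMIs of Ppl, Pkp1, Grhl3 and Nebl together, genes of the cornified envelope, the desmosome, the grainyhead transcription factors and actin filaments. The gate held 503 of 11355 cells, or 4.43%, with a median of 6513 UMIs against 6342 in the other 10852 cells. A separate list of periderm and suprabasal genes, which holds Cldn4, Jup and Sfn among others, summed to 1224 CPM in the gated cells and to 321 CPM in the others, and the smooth muscle-type genes Tagln and Acta2 to 248 CPM against 17.7 CPM. Called doublets made up 12.3% of the gated cells and 5.52% of the others, and without them the same members were called. The edge of the gate was not sharp, since 133 gated cells had exactly 3 gate UMIs and 348 cells outside it had 2. Nor does the gate separate periderm from suprabasal cells, since the study found markers of its periderm and suprabasal cluster in both. The name periderm-gated is used here for both.

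In these periderm-gated cells all 3 receptors, Jag1 and the targets Hes1 and Hey1 were higher than in the rest of the epithelium, and Jag2 was lower. A gene was called higher when its CPM was at least 1.3 times that of the other cells and at least 15% of the gated cells had a UMI, and lower when the reverse held. Of the 9 members, 7 had enough cells with a UMI to be called, and 6 of these were higher and 1 was lower. Among 6581 genes that could be called, 10.8% were higher and 6.99% were lower. The median log2 ratio of the 7 members was 1.43, against -0.02 for all those genes. From the same E12.0 cells, the study had already reported Notch receptors, Hes1, Hes5 and Hey1 in its periderm and suprabasal cluster. The members were thus partly known to be present in these cells, and the shares over all genes are given as a description only.

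Notch1 stood out among the receptors. It reached 519 CPM (496 to 543) in the gated cells against 52.6 CPM (51.0 to 54.3) in the others, a 9.87-fold higher level (9.35 to 10.4). A Notch1 UMI was found in 86.7% of gated and 25.2% of other cells, and in 78.2% and 17.3% once every cell was reduced at random to 4000 UMIs, with 35 gated and 881 other cells too shallow for this set aside. Notch3, a receptor best known from vascular smooth muscle, was at 65.7 CPM (57.8 to 74.5) against 9.97 CPM (9.27 to 10.7), or 6.59-fold higher (5.68 to 7.62). Notch2 differed least of the receptors, with 45.9 CPM (39.3 to 53.3) against 19.6 CPM (18.6 to 20.7), or 2.34-fold (1.99 to 2.74). No interval of a receptor in the gated cells overlapped that in the other cells.

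The ligands went in opposite directions. Jag1, which binds all Notch receptors, was at 126 CPM (114 to 137) in the gated cells and 46.6 CPM (45.0 to 48.1) in the others, 2.70-fold higher (2.44 to 2.97). Jag2, a second Jagged ligand, known in the embryonic mouth for its part in keeping the periderm of palate and tongue from fusing, was at 30.7 CPM (25.4 to 36.9) against 60.8 CPM (59.0 to 62.6), a ratio of 0.505 (0.416 to 0.608). Jag2 was the only member called lower, and it missed a stricter criterion of a 2-fold difference. Dll1, a Delta-like ligand, had 5 UMIs in the gated cells and 179 in the others, or 1.34 and 2.41 CPM, and the interval of the ratio, 0.178 to 1.32, included no difference.

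Of the targets, Hes5 had the largest ratio. It had 46 UMIs in the 503 gated cells and 6 in the 10852 others, 12.3 CPM (8.995 to 16.4) against 0.0809 CPM (0.0297 to 0.176), a ratio of 152 (64.7 to 435). Because only 5.57% of gated cells had a Hes5 UMI it did not reach the share needed for a call. A Hes5 UMI was found in 0.0461% of the other cells. Of the 6 UMIs there, 3 were in 75 ungated cells of the periderm-like cluster described below. Hes1, which is expressed widely in progenitor cells, was at 157 CPM (144 to 170) against 92.96 CPM (90.8 to 95.2), or 1.68-fold higher (1.55 to 1.83). Hey1 was at 37.1 CPM (31.2 to 43.8) against 12.97 CPM (12.2 to 13.8), or 2.86-fold higher (2.38 to 3.42).

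**Figure D1:**
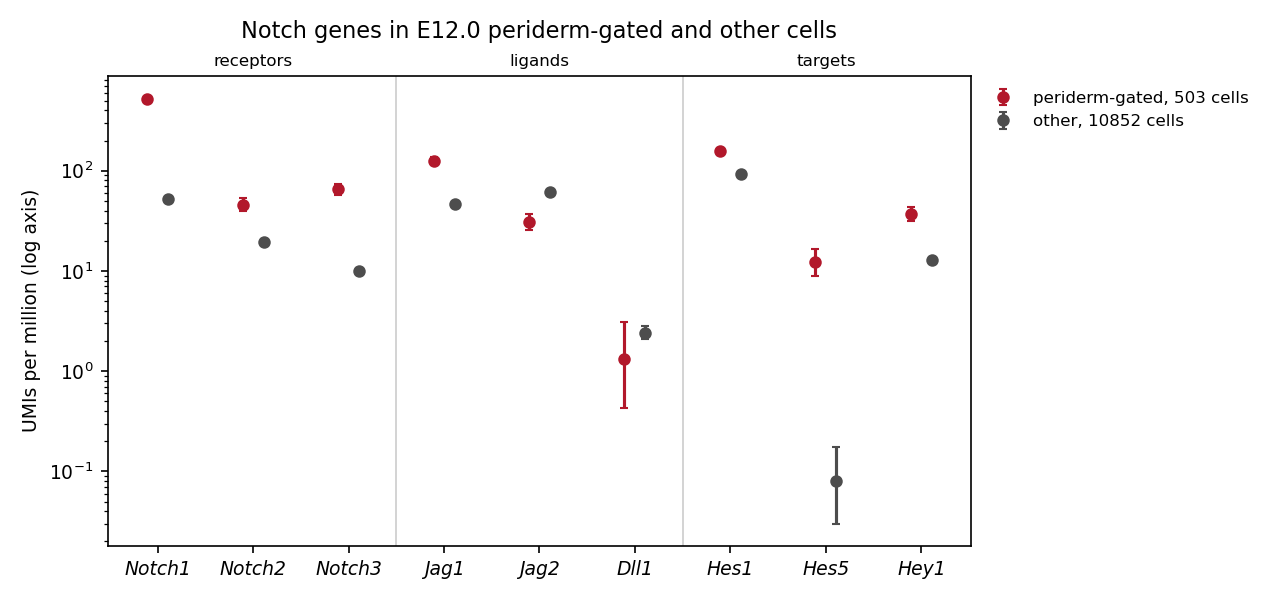
Levels of the 9 Notch genes in CPM, on a log axis, in the 503 periderm-gated cells (red) and the other 10852 cells (grey) of the E12.0 library; points are pooled levels and bars exact 95% Poisson intervals of the count, hidden where they are smaller than the point. Notch1 lies at 519 against 52.6, Jag2 is the only callable gene lower in the gate, and Hes5 shows the widest gap, 12.3 against 0.0809.

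Among 42 other genes of the pathway, 19 could be called, 3 were higher in the gated cells and 0 were lower, against 10.8% and 6.99% of all genes, with a median log2 ratio of 0.08. They included Nrarp, a target gene whose product damps the signal, at 87.9 against 22.6 CPM, and Numb, which lowers Notch at the membrane, at 30.2 against 21.98 CPM. Several core parts differed little: Rbpj was at 95.4 against 101 CPM, a ratio of 0.944 (0.846 to 1.05), and the ligand-activating ubiquitin ligase Mib1 at 143 against 136 CPM, a ratio of 1.05 (0.964 to 1.15). Too few cells had Lfng, which encodes a fucose-modifying enzyme of the receptors, for a call, but its level was 3.47 against 13.5 CPM, a ratio of 0.258 (0.137 to 0.443). The target Heyl had 6 UMIs in the gated cells and 2 in all others.

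For Hes5, the target with the largest ratio, and Notch3, a receptor with a large one, the 250 bases before the annotated start are given from RefSeq (GRCm38.p6), to show where the core of the RBPJ site, TGGGAA, lies on either strand. RefSeq sequences were matched for 7 of the 9 members. No entry was available for Hes1 and Hey1, so they were not searched and Hes5 was the only target gene examined. The core was found at Hes5 (chromosome 4, plus strand), where its matches start 226 bases before the start, on the minus strand, and 82 bases before it, on the plus strand, and in none of the other 6 matched members. Capitals mark the matches as read on the plus strand.
Hes5, chr4:154960673-154960922: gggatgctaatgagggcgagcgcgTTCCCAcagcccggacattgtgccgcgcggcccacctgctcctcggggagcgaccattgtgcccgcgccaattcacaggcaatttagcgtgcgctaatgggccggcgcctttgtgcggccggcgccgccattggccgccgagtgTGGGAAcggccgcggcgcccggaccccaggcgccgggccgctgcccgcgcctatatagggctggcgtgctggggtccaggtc
Notch3, chr17:32166891-32167140, minus strand: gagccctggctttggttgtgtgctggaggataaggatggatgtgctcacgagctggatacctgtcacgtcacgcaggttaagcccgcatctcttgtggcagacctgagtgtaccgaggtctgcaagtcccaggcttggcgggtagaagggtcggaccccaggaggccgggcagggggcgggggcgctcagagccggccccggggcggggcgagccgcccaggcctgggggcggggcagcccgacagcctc
Of 32851 RefSeq promoter windows of this length, 21.6% held the core at least once and 2.77% held it 2 or more times. The grainyhead motif AACCNGTT was found in 1.79% of them and in 0 of the 7 members. The Hes5 window overlaps an exon of the gene Gm20421 on the opposite strand, and the Notch3 window overlaps no annotated gene. A match is only a run of letters, and none of these data measure binding.

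Levels followed the gate score beyond its threshold. With 0, 1 and 2 gate UMIs, all outside the gate, Notch1 was at 44.2, 74.5 and 145 CPM in 8921, 1583 and 348 cells. Inside the gate it was at 262 CPM with 3, 504 with 4 to 5, 635 with 6 to 8 and 703 with 9 or more gate UMIs, in 133, 133, 142 and 95 cells. Notch3 went from 8.70 CPM at 0 to 104 CPM at 9 or more, and Notch2 from 19.1 to 71.8 CPM, each higher at every step, with overlapping intervals between some neighbouring steps. Jag2 lay between 54.4 and 66.8 CPM up to 3 gate UMIs and at 31.6, 15.1 and 21.3 CPM in the 3 steps above.

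Jag1, Hes1 and Hey1 had their highest values before the last step, and Hes5 and Nrarp had theirs at it. Jag1 went from 44.3 CPM to 155 CPM (132 to 181) at 6 to 8 gate UMIs and was at 134 CPM (109 to 163) at 9 or more, which overlaps it. Hey1 was at 24.1 CPM at 3 gate UMIs and between 38.6 and 42.9 CPM in the steps above, and Hes1 was highest at 4 to 5, with 184 CPM (158 to 213). Hes5 was at 0.375 CPM at 2, 4.19 CPM at 3 and between 12.3 and 17.3 CPM above, with overlapping intervals from 4 UMIs on. Nrarp was at 22.1 CPM at 0 gate UMIs, 42.9 CPM at 3, 95.5 CPM (77.8 to 116) at 6 to 8 and 152 CPM (125 to 182) at 9 or more. Median depth per cell ranged from 6279 to 7365 UMIs over the 7 steps.

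**Figure D2:**
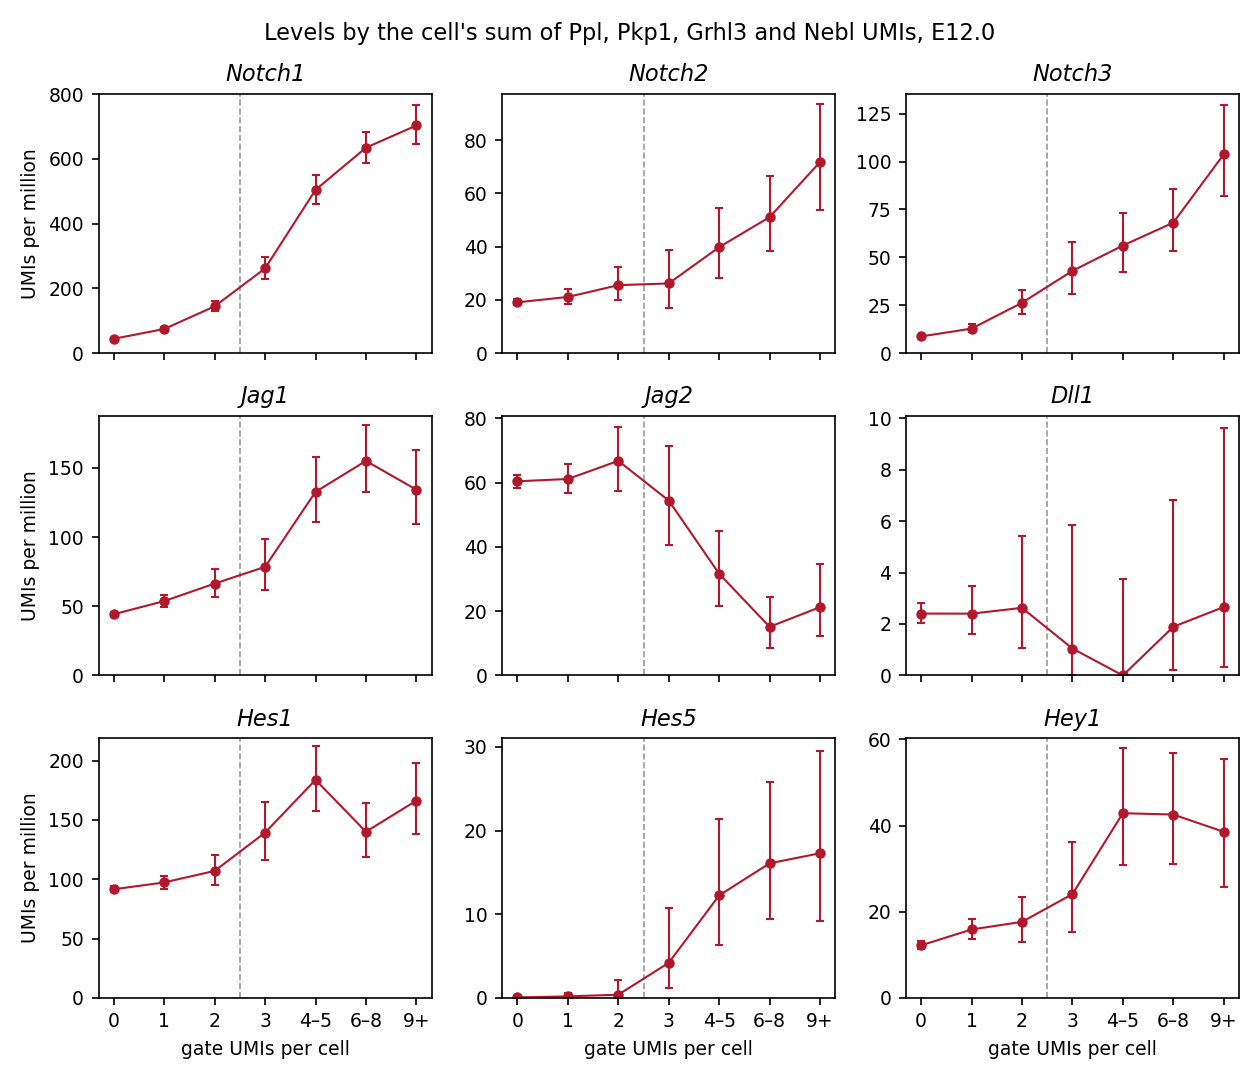
Each panel plots 1 gene's level in CPM (vertical axis, from 0) over cells grouped by their summed UMIs of Ppl, Pkp1, Grhl3 and Nebl (horizontal axis), with exact 95% Poisson intervals; the dashed line is the gate at 3. Receptors climb through the last step, with Notch1 from 44.2 to 703, whereas Jag2 lies at 31.6 or lower above 3 gate UMIs.

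The gate and the clusters did not agree for all cells. Of 503 gated cells, 358 (71.2%) lay in the cluster named periderm-like from its markers (433 cells, with Zfp750 and Pkp1 among its leading genes), and 145 (28.8%) lay in other clusters. Notch1 was at 639 CPM (609 to 671) in the former and 261 CPM (232 to 291) in the latter, and 45 of the 46 Hes5 UMIs were in the former. Jag2 was at 19.9 CPM (14.8 to 26.2) in the periderm-like cluster and at 54.0 CPM (41.6 to 68.9) in gated cells elsewhere, an interval that holds the 60.8 CPM of ungated cells. Hey1 was at 37.1 CPM in both, and Hes1 at 165 CPM (149 to 181) and 139 CPM (119 to 162).

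Gated cells also carried markers of different parts of the mandible. By the largest of their zone marker sums, 94 were anterior, 209 dental, 24 posterior and 176 had too few marker UMIs, with called doublets at 20.2%, 13.4%, 20.8% and 5.68%. Notch1 was at 527, 495, 266 and 607 CPM in them, and so was far above the 52.6 CPM of ungated cells in all 4. Jag2 was at 41.4, 26.6, 68.7 and 22.2 CPM, and in the 24 posterior cells (39.3 to 112) was not below the 60.8 CPM of ungated cells. Nrarp was at 121 CPM in the anterior and 130 CPM in the unassigned cells, and at 56.2 and 25.8 CPM in the dental and posterior ones. The 143 gated cells with a UMI of Tagln or Acta2 had 489 CPM of Notch1 against 534 CPM in the 360 without, a ratio of 0.915 (0.829 to 1.01). Of 7 members that could be called in that split 0 were higher and 1 was lower, Hey1 at 28.2 against 41.4 CPM, and the interval of its ratio, 0.449 to 1.01, included no difference. In the same split 10.2% of 6898 genes were higher and 8.96% were lower.

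Over the 14 clusters of the E12.0 library, which were built without the 9 members and the pathway genes, 6 members peaked in the periderm-like cluster and 3 did not. The gate genes were not among those left out. Ppl, Pkp1, Grhl3 and Nebl all lie among the leading genes of the periderm-like cluster, so it is not independent of the gate. Notch1 was at 616 CPM there (588 to 645) and at 124 CPM in the next, the initiation knot-like cluster led by Shh (108 to 141). That second place rested on gated cells: outside the gate, the knot-like cells had 77.6 CPM of Notch1 (64.7 to 92.3), the unnamed cluster led by Hist1h2bc 81.8 CPM (74.5 to 89.6) and the zone A-like cluster led by Gjb6 81.4 CPM (75.4 to 87.8), with overlapping intervals. The lowest Notch1, 21.0 CPM, was in a dental zone D-like cluster led by Frem1 and Gpm6b. Notch2, Notch3 and Hes1 were highest in the periderm-like cluster too, at 54.4, 80.7 and 167 CPM, against 34.4, 21.1 and 121 CPM in the second cluster of each. The intervals of Jag1, 138 CPM (125 to 153) in the periderm-like and 110 CPM in the knot-like cluster (95.1 to 126), overlapped. Without its gated cells, the knot-like interval, given below with zone D, lay wholly below that of the periderm-like cluster. Of the 52 Hes5 UMIs in the library, 48 were in the periderm-like cluster.

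The other 3 members peaked elsewhere. Hey1 was highest in a salivary gland-like cluster of 388 cells led by Fam150b and Col9a1, at 65.6 CPM (57.2 to 74.9), above the 41.9 CPM (34.8 to 49.9) of the periderm-like cluster. Jag2 was lowest in the periderm-like cluster, at 20.6 CPM, and spread narrowly over the rest, up to 75.8 CPM in an unnamed cluster of low depth and 74.1 CPM in a cluster led by Fndc1 and Pax9. Dll1 was at 10.8 CPM (8.68 to 13.2) in a zone A-like cluster led by Gjb6 and Gjb2, at 3.23 CPM in the other zone A-like cluster, and lower in the other clusters.

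**Figure D3:**
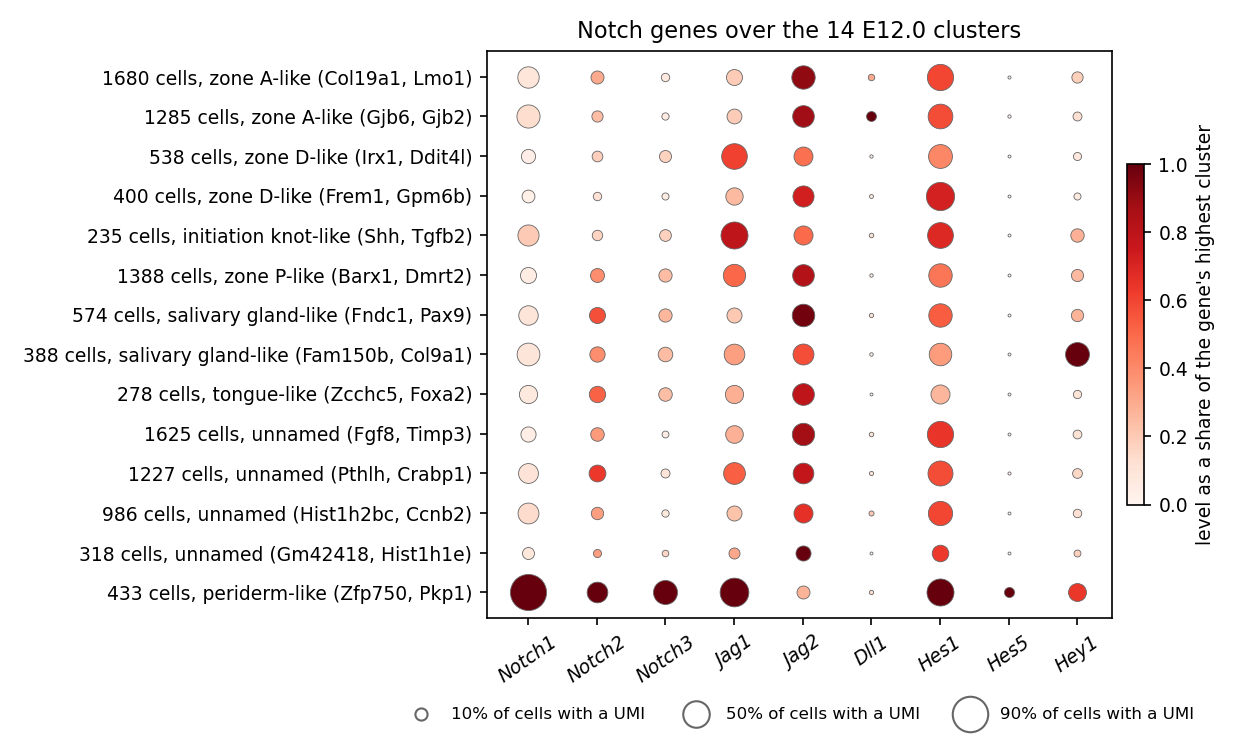
Dots give, for each of the 14 E12.0 clusters (rows, with cell number, name by its markers and 2 of its leading genes) and each Notch gene (columns), the share of cells with a UMI as dot area and the level divided by the gene's highest cluster as colour. The periderm-like row is darkest for Notch1, Notch2, Notch3, Jag1, Hes1 and Hes5, while Hey1 is darkest in the Fam150b cluster, at 65.6 against 41.9 CPM, and Dll1 in the Gjb6 cluster.

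The genes with the most similar pattern over the 14 clusters, among 5021 genes compared by Pearson's r of log2(CPM + 5), differed between members. For Notch1 they were Neat1, Limk2 and Jup, each at an r of 0.92, and for Notch3 they were Ocln, Ezr and Klc3, at 0.93, 0.91 and 0.90. Klf5 and Ssx2ip were among the 3 nearest to Notch2, at 0.94 and 0.89. Nearest to Jag1 were Cdc42bpb, Dsc2 and Kctd1, at 0.89, 0.86 and 0.86, and to Jag2 Tex9, Abl1 and Zfp462, each at 0.89. For Hes1 they were Gadd45b, Map9 and Pogk, at 0.90, 0.90 and 0.87, and those for Hey1 included Cpm and Erbb3, at 0.93 and 0.89. These values describe 14 clusters of the same library, and 5 of the 7 members were highest in the periderm-like one.

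Outside the gate, the zones of the mandibular epithelium differed in which receptor and ligand they held. Zone A (anterior, 2936 cells), zone D (dental, 1133 cells) and zone P (posterior, 2593 cells) were each compared with the other zones. Of the ungated cells in no zone, 4115 lay in unnamed clusters and 75 in the periderm-like cluster. Those 75 had 469 CPM of Notch1 and count among the other cells in the comparison with the periderm gate. The zones are unions of clusters: zone A holds 2 zone A-like clusters, zone D holds 2 zone D-like clusters and the knot-like one, and zone P pools 1373 cells of the zone P-like cluster led by Barx1 with the salivary gland-like clusters led by Fndc1 (560 cells) and Fam150b (386 cells) and the tongue-like cluster led by Zcchc5 (274 cells). Among the zones as pooled, zone A had the most Notch1 and Dll1 and the least Jag1 and Notch3. Zone D had the most Jag1 and the least Notch1, Notch2, Jag2 and Hey1. The pooled zone P had the most Notch2, Notch3 and Hey1 and the least Hes1. This ranking leaves out the unzoned cells, which had 47.3 CPM of Jag1 and 23.4 CPM of Notch2 as a whole. Outside the gate, the unnamed cluster led by Pthlh (1206 cells) had 71.7 CPM of Jag1 (65.9 to 77.9), near the 71.9 CPM of zone D. Its Notch2, at 34.0 CPM (30.1 to 38.3), lay above the 23.9 CPM of zone P. The leading genes of this cluster include Slc4a4, which the study used to map anterior epithelium. Those of the unnamed cluster led by Fgf8 include Timp3 and Prss23, the study's diastema markers. Zones A and D as used here may therefore leave out anterior and dental cells. No member was called higher in a zone at a stricter criterion of 2-fold.

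In zone A, 1 of 4 members that could be called was higher and 1 was lower, where 8.2% of 6594 genes were higher and 8.58% were lower. Notch1 was at 65.4 CPM (62.0 to 69.0) in zone A, 31.9 CPM (28.2 to 35.8) in zone D and 43.0 CPM (40.0 to 46.1) in zone P, and these intervals do not overlap. Its log2 ratio in zone A against the others was 0.73. Jag1 was at 26.8 CPM (24.6 to 29.1) in zone A, with a log2 ratio of -1.15. Dll1 had 131 UMIs in zone A, 5 in zone D and 8 in zone P, or 6.27, 0.569 and 0.435 CPM, and was 13.1-fold higher in zone A than in the others (7.40 to 25.3), but only 4.16% of zone A cells had a Dll1 UMI.

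Zone D had 1 member higher and 2 lower of 4, against 7.54% and 9.03% of 6670 genes. Jag1 was at 71.9 CPM (66.4 to 77.7), with a log2 ratio of 0.87, Notch1 had one of -0.79, and Jag2 was at 42.8 CPM (38.6 to 47.3) against 64.9 CPM, with one of -0.60. Within the dental clusters outside the gate, Jag1 was at 103 CPM (87.7 to 119) in the knot-like cells and at 85.2 CPM (76.7 to 94.4) in the cluster led by Irx1, but at 34.5 CPM (28.1 to 42.0) in that led by Frem1. Hes1 had the opposite order in the latter pair, with 66.5 CPM (59.0 to 74.7) in the Irx1 cluster and 122 CPM (110 to 136) in the Frem1 cluster. Notch1 was at 22.2 CPM (17.9 to 27.1) in the Irx1 cluster and 20.2 CPM (15.4 to 26.2) in the Frem1 cluster. In the knot-like cells it was at 77.6 CPM (64.7 to 92.3), so the low Notch1 of pooled zone D did not hold there.

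Zone P had 2 members higher and 1 lower of 5, against 6.85% and 6.74% of 6540 genes. Notch2 was at 23.9 CPM (21.7 to 26.2), with a log2 ratio of 0.84, Jag1 was at 53.6 CPM (50.3 to 57.1), with one of 0.42, and Hes1 at 72.4 CPM (68.5 to 76.4), with one of -0.41. Notch3, at 19.6 CPM, was 2.87-fold above the other zones (2.41 to 3.43) and Hey1, at 24.3 CPM, 2.67-fold (2.29 to 3.11), each in too few cells for a call at 15%. The clusters of zone P were uneven. Hey1 was at 65.2 CPM in the Fam150b cluster, which held 216 of the 446 Hey1 UMIs of zone P, and at 16.5, 16.8 and 6.58 CPM in the Barx1, Fndc1 and Zcchc5 clusters. Hes1 was at 76.7, 90.2, 57.6 and 43.5 CPM in the Barx1, Fndc1, Fam150b and Zcchc5 clusters, and Jag1 at 69.4, 27.6, 44.96 and 39.96 CPM. Only the Barx1 cluster, with its interval of 64.2 to 75.0 CPM, thus lay above the pooled Jag1 value. The Notch2 call was lost without doublets, with zones set by marker sums in single cells, at a clustering resolution of 0.6, at a UMI in at least 25% of cells and in the 894 zone P cells that had Xist but lacked any Y-linked UMI. The Jag1 call was lost in those 894 cells too, and both were lost at 2-fold. Hes5 had 2 UMIs in zone A and 0 in zones D and P, where the intervals reach up to 0.420 CPM in zone D and 0.201 CPM in zone P.

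Of the 42 other pathway genes, 1 was higher and 3 were lower of 18 that could be called in zone A, 2 were higher and 0 lower of 19 in zone D, and 3 were higher and 1 was lower of 19 in zone P. Over all genes tested, 8.2% were higher and 8.58% lower in zone A, 7.54% and 9.03% in zone D, and 6.85% and 6.74% in zone P, so that with so few genes these counts are given as a description. Dlk1, an atypical ligand without the Notch-binding domain of the others, was at 94.4 CPM in zone P and 2.30 CPM in zone A. Nrarp was higher in zone A, at 27.4 CPM, and lower in zone P, at 12.7 CPM. Hes6 and Ctbp2 were lower in zone A and higher in zone P, and Hes6 was among those higher in zone D.

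Because ligand and receptor can act on each other within a cell, their presence in the same cell was counted after thinning to 4000 UMIs. In 38.7% of 468 periderm-gated cells (34.2 to 43.3) at least 1 ligand and 1 receptor member was found, against 9.46% of 9971 other cells (8.89 to 10.0). Without thinning the shares were 60.2% and 19.9%. Cells with a receptor alone were 45.7% of the gated and 16.6% of the other cells, and cells with a ligand alone 5.77% and 24.6%. Neither was found in 9.83% of gated and 49.4% of other cells, so the gated cells were mostly receptor cells, with or without a ligand.

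For single pairs, the cells with both genes were set against the number expected if each gene's share were independent of the other's within the group, with the expected number taken as fixed, for 9 pairs in 8 groups of cells. In the gated cells 0 of 9 pairs lay wholly above 1, and the 3 Dll1 pairs were expected in fewer than 1 cell each. The intervals cover the joint count alone and do not hold the 2 shares fixed, so they are too wide for a gene found in most cells. Notch1 was in 366 of the 468 gated cells, which also left its pairs little room above 1. The count of 0 therefore does not show that ligand and receptor were independent in these cells. Jag1 and Notch1 were found together in 146 cells where 134 were expected, a ratio of 1.09 (0.946 to 1.25). Jag1 with Notch2 and with Notch3 had ratios of 1.22 (0.849 to 1.69) and 1.23 (0.927 to 1.60). The Jag2 pairs had lower ratios, 1 of them wholly below 1: Jag2 and Notch3 were together in 5 cells where 12.1 were expected, a ratio of 0.413 (0.135 to 0.958), and Jag2 and Notch1 in 28 where 39.9 were expected, a ratio of 0.702 (0.471 to 1.00). As Notch1 was in most gated cells, an interval that reaches 1.00 does not set this pair apart from Jag2 and Notch3. Jag2 was lower, and Notch1 and Notch3 were higher, in gated cells of the periderm-like cluster than in gated cells of other clusters, and the part of this mixture in the ratio was not tested.

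In the other cells 1 of 9 pairs lay wholly above 1, Jag1 with Notch3, in 83 cells where 63.0 were expected (1.32, 1.05 to 1.63). Dll1 with Notch2 had a ratio of 1.85 (0.987 to 3.17), and within zone A of 2.55 (1.23 to 4.69), from 10 cells where 3.92 were expected. Jag1 with Notch3 lay wholly above 1 in no single zone. Its ratio was 0.974 (0.358 to 2.12) in zone A, 1.11 (0.555 to 1.98) in zone D and 1.34 (0.991 to 1.77) in zone P. The part of pooling unlike cells in the ratio was not tested.

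**Figure D4:**
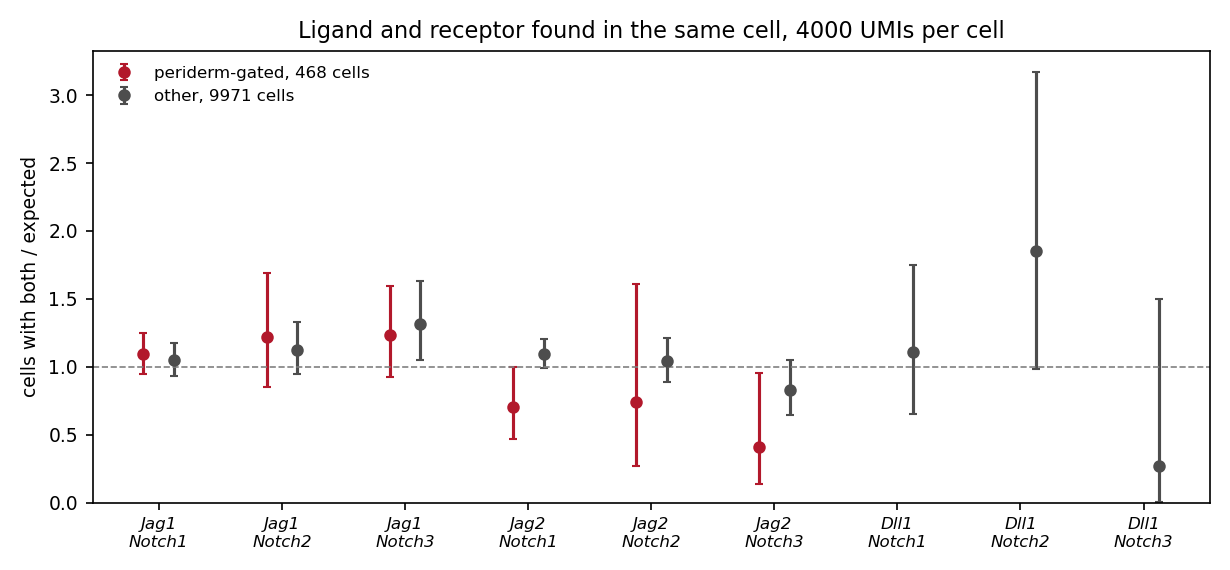
Cells with both a ligand and a receptor UMI divided by the number expected from the 2 shares (vertical axis, no unit), for each pair (horizontal axis) in periderm-gated (red) and other (grey) E12.0 cells thinned to 4000 UMIs, with exact 95% intervals of the joint count; the dashed line is 1 and pairs expected in fewer than 1 cell are not drawn. In gated cells the Jag1 pairs lie from 1.09 to 1.23 and the Jag2 pairs from 0.413 to 0.744, with Jag2 and Notch3 wholly below 1.

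The targets were not spread alike over these cell states. Of the Hes5 UMIs left after thinning, 21 were in the 181 gated cells with ligand and receptor and 6 in the 214 with a receptor alone, 29.0 CPM (17.95 to 44.3) against 7.01 CPM (2.57 to 15.3), and 0 in the 27 with a ligand alone and the 46 with neither. Hey1 had 34.5 CPM (22.3 to 51.0) in cells with both and 53.7 CPM (39.3 to 71.7) in those with a receptor alone. Hes1 had 157 CPM (130 to 189) and 190.4 CPM (162 to 222) in these states and 103 CPM (62.2 to 161) in cells with neither. Nrarp had 116 CPM (92.5 to 144) in cells with both, 80.6 CPM (62.7 to 102) with a receptor alone and 48.9 CPM (22.4 to 92.9) with neither. The intervals for Hey1, Hes1 and Nrarp overlapped between cells with both and cells with a receptor alone, and those for Hes5 did not. The Hes5 UMIs came from only 19 cells, and the intervals treat UMIs as independent, so they may be too narrow. All 19 were among the 330 thinned gated cells of the periderm-like cluster, and 0 among the 138 of other clusters. The part of this mixture in the Hes5 contrast was not tested.

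At E9.5 the cells were split by at least 2 UMIs of Epcam (epithelium, 2420 cells), Twist1 (mesenchyme, 5375 cells) or Cdh5 (endothelium, 140 cells) and none of the other genes. The remaining 4809 cells were in no gate, 1385 of them with no UMI of the 3 genes and 2239 with UMIs of more than 1 of them. Epithelial markers summed to 1809 CPM in the Epcam gate, mesenchymal ones to 1385 CPM in the Twist1 gate and endothelial ones to 1510 CPM in the Cdh5 gate. Embryonic globins, which should be absent from all 3, summed to 547, 667 and 127 CPM, and their part in the levels below was not tested.

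Among the E9.5 tissues, Notch1 was highest by far in endothelial cells. It was at 159 CPM (142 to 177) in the Cdh5 gate, 8.71 CPM (7.69 to 9.83) in the Epcam gate and 7.64 CPM (7.05 to 8.27) in the Twist1 gate, so it was 20.0-fold higher in endothelial cells than in the others together (17.5 to 22.8). A Notch1 UMI was found in 87.9%, 8.68% and 9.90% of the cells, and in 50.4%, 2.84% and 3.03% after thinning, which left out 3, 58 and 392 cells. As a measure of free RNA, the endothelial ligand Dll4 had 91 UMIs in the Cdh5 gate and 13 in the other 2 gates, where 0.167% of cells had one, while Notch1 had 312 and 880. Notch2 had no UMI in 140 endothelial cells, which was 6.01-fold lower than in the other gates together if 3 UMIs stand in for 0.

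Notch3 and the ligand Jag1 marked the epithelium instead. Notch3 was at 34.0 CPM (32.0 to 36.2) in the Epcam gate, 13.2 CPM (12.4 to 14.04) in the Twist1 gate and 12.7 CPM (8.23 to 18.8) in the Cdh5 gate. Jag1 was at 55.6 CPM (53.0 to 58.3), 9.45 CPM (8.79 to 10.1) and 6.61 CPM (3.52 to 11.3), with overlapping intervals in the latter pair for both genes. Jag2 was at 4.12 CPM (3.43 to 4.91) in epithelium, 0.657 CPM (0.492 to 0.860) in mesenchyme and 6.105 CPM (3.15 to 10.7) in endothelium. Dll1 had 37, 23 and 1 UMIs.

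Hes1 and Hey1 were highest in the endothelium. Hes1 was at 102 CPM (88.1 to 117) in the Cdh5 gate, 62.3 CPM (59.5 to 65.2) in the Epcam gate and 46.4 CPM (45.0 to 47.9) in the Twist1 gate. Hey1 was at 96.2 CPM (82.9 to 111), 16.9 CPM (15.5 to 18.4) and 12.4 CPM (11.7 to 13.2). Hes5 had 50 UMIs in the Epcam gate, 44 in the Twist1 gate and 0 in the Cdh5 gate, where the interval reaches up to 1.88 CPM.

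By the same size criteria 3 of 4 callable members were higher in the Epcam gate (Notch3, Jag1 and Hes1) and 0 lower, where 25.8% of 7671 genes were higher and 12.9% were lower. In the Twist1 gate 0 of 4 were higher and 4 lower (Notch3, Jag1, Hes1 and Hey1), against 12.1% and 25.5%. As the Cdh5 gate held only 140 cells, the Epcam and Twist1 comparisons are nearly the same contrast reversed and are not separate results. In the Cdh5 gate 3 of 5 were higher (Notch1, Hes1 and Hey1) and 2 lower (Notch3 and Jag1), against 26.3% and 30.1% of 8030 genes. The call of Hes1 in epithelium lay at the threshold, with a ratio of 1.305 (1.23 to 1.38), and was lost when gates were scaled by their median ratio. It was also lost at 2-fold, in cells with Xist and no Y-linked UMI, and where a gate's own gene only had to exceed the others.

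**Figure D5:**
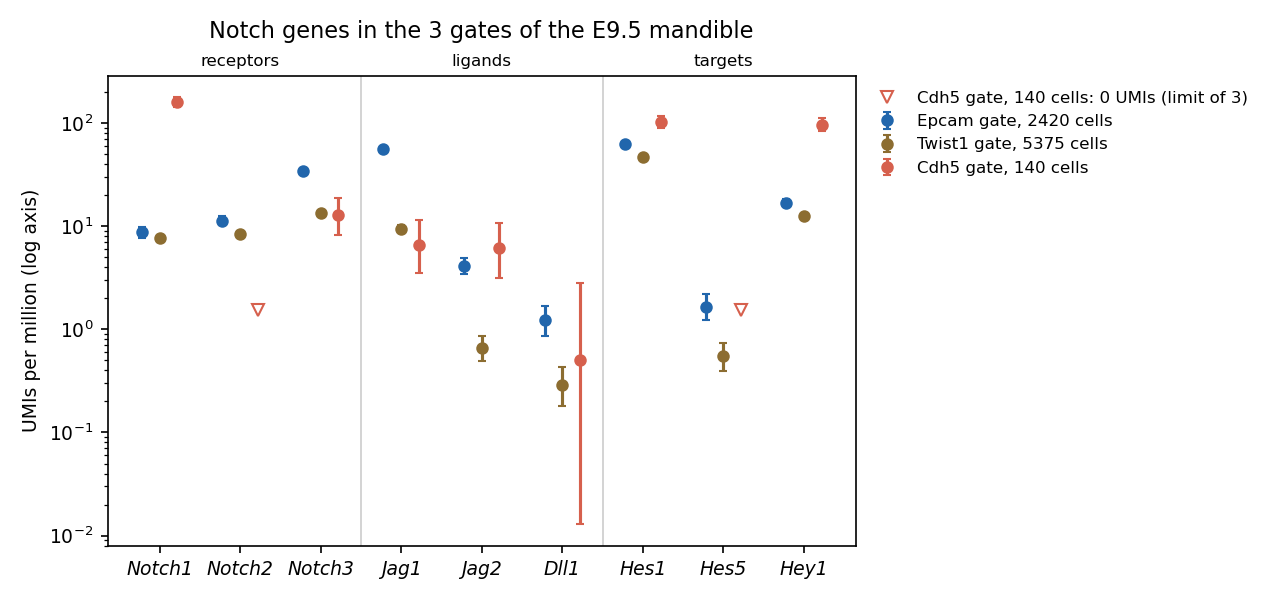
Levels of the 9 Notch genes in CPM, on a log axis, in the Epcam (blue, 2420 cells), Twist1 (brown, 5375 cells) and Cdh5 (red, 140 cells) gates of the E9.5 library, with exact 95% Poisson intervals; open triangles stand at the level of 3 UMIs for genes with 0. Notch1 and Hey1 are highest in the Cdh5 gate, at 159 and 96.2, and Notch3 and Jag1 in the Epcam gate, at 34.0 and 55.6.

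The other genes of the pathway were counted in the same gates. In the Epcam gate 8 of 19 were higher and 0 lower, against 25.8% and 12.9% of all genes tested, among them Dlk1 at 223 against 24.2 CPM, Hes6 at 41.8 against 12.6 CPM and Rbpj at 70.7 against 49.3 CPM. In the Twist1 gate, nearly the reverse of the Epcam comparison, 0 were higher and 9 lower of 19, against 12.1% and 25.5%. In the Cdh5 gate 10 of 24 were higher and 8 lower, against 26.3% and 30.1%, so that the lower count there was near the background. Those higher included Dll4 at 46.3 against 0.117 CPM, the fucose-modifying enzyme gene Mfng at 57.0 against 0.631 CPM, Notch4 at 39.7 against 1.42 CPM and Nrarp at 45.8 against 3.18 CPM, and those lower included Rbpj, at 35.6 against 55.4 CPM.

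Ligand and receptor were rarely found in the same E9.5 cell after thinning, in 3.94% of Epcam-gated, 0.682% of Twist1-gated and 2.92% of Cdh5-gated cells, against 21.5%, 5.56% and 12.9% without thinning. In the Cdh5 gate 51.1% of cells had a receptor member alone. Of the pairs, none lay wholly above 1 in these 3 gates, and the Jag1 and Notch3 ratio was 1.201 (0.917 to 1.54) in the Epcam gate and 1.66 (0.965 to 2.65) in the Twist1 gate.

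The periderm gate found 22 of 2420 Epcam-gated cells at E9.5, with the periderm and suprabasal list at 113 CPM against 70.8 CPM over the whole Epcam gate. The mesenchyme markers were at 119.7 against 55.4 CPM in the same cells, and their part in the results on these cells was not tested. Notch1 had 6 UMIs in them, 18.9 CPM against 8.60 CPM in the other 2398, a ratio of 2.20 (0.799 to 4.85), and Notch2 had 9, 28.3 against 11.1 CPM, a ratio of 2.55 (1.16 to 4.91). These were the 2 members called higher of 6, and Jag1 was the 1 called lower, at 40.9 against 55.7 CPM with a ratio of 0.734 (0.390 to 1.26), where 26.9% of 8069 genes were higher and 16.8% were lower. Only the interval of Notch2 left out no difference. Hes5, Jag2 and Dll1 had no UMI in the 22 cells.

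Epcam-gated cells with endoderm markers (Foxa1, Foxa2, Pax1 and Shh, 288 cells) had more Jag1 and Hey1 than those with ectoderm markers (Pitx1, Tfap2b and Irx1 among others, 1236 cells). Jag1 was at 38.6 CPM (35.7 to 41.7) in ectoderm and 99.0 CPM (89.4 to 109) in endoderm, and Hey1 at 14.2 CPM (12.5 to 16.1) and 25.3 CPM (20.5 to 30.7). These were 2 lower of 4 callable members, with 0 higher, where 8.36% of 7704 genes were lower and 4.3% were higher. Notch1 was at 6.75 CPM (5.57 to 8.11) and 13.5 CPM (10.1 to 17.7), in too few cells for a call. Notch3 was at 31.6 CPM (28.9 to 34.4) and 33.9 CPM (28.4 to 40.2), with overlapping intervals.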

How the data were processed

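Both libraries were made with 10x Genomics 3′ V3 chemistry. The authors deposited raw UMI counts per gene and barcode, without normalization, for barcodes already selected as cells. The submitters' processing notes name Cell Ranger 2.0.0 and the builds mm10 and GRCm38, whereas the matrix headers name versions 3.1.0 (E12.0) and 6.1.2 (E9.5). Counts were summed over cells and given as CPM, with exact Poisson, conditional binomial and Clopper-Pearson intervals (Python 3.11.15, numpy 2.4.6, scipy 1.17.1, pandas 2.3.3) and figures in matplotlib 3.10.9. Where a group had 0 UMIs, 3 stood in for a bound. Kept cells held 77936364 UMIs in the E12.0 library and 166191431 in that of E9.5. E12.0 cells were clustered with Seurat 5.3.0, sctransform 0.4.2 and Matrix 1.6.5 (R 4.3.3), following the study's settings (30 components, resolution 0.9), with the 9 members and the pathway list left out of the variable features. A cluster was named when at least 3 of a class's markers were raised 1.5-fold and found in 5% of its cells. At E12.0 the marker Rtl3 is listed under its older symbol Zcchc5 and Ccn4 under Wisp1. Doublets were called with Scrublet (scanpy 1.11.5) and kept, 661 (5.82%) and 331 (2.60%) cells. Thinning used a seed of 1. The size criteria use the fold and share cutoffs of the study's marker lists. They are applied here to pooled CPM, without the study's Wilcoxon rank sum test. Named genes are the members, pathway genes past the criteria or stated with their values, and the 3 nearest neighbours of members that reach 20 CPM in a cluster, among genes that reach 50 CPM. Genes said to lead a cluster, and pathway genes given without a call (Rbpj, Mib1, Lfng and Heyl in the periderm gate), were chosen after their values were seen. The members and lists were chosen with earlier results of these data known. The steps were tested on simulated data with known fold changes. Alternatives are listed in the closing section; those of G1 cells, the low-depth cluster and the overlap of gate and cluster were added after seeing the data. Results for some genes are not given here.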

Additional observations from a re-analysis of the deposited data

Results flagged for a closer look

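In the periderm gate against other epithelial cells, Notch3 and Jag1 differed in direction between the stages. At E9.5 the log2 difference of Notch3 was -0.11 (-1.18 to 0.77) and that of Jag1 was -0.45 (-1.36 to 0.33), and at E12.0 they were 2.72 and 1.43. The difference between the stages was not tested, the E9.5 values rest on 22 gated cells with 10 UMIs of Notch3 and 13 of Jag1, and both E9.5 intervals include no difference. The libraries also differ in sorting and dissociation, which cannot be told apart from stage.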

How the results depend on the processing

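No paired analysis was possible because each stage has 1 library, and for the same reason no library could be left out. Over 18 alternatives for the periderm gate, between 5 and 7 members were higher (main value 6, the same genes in 14), and 1 was lower in each except with a fold of 2, which gave 0. Log2 ratios were available for 17 of these alternatives, and for 15 with Dll1 and Hes5. There they kept their sign, with Notch1 between 2.89 and 3.60 and Jag2 between -1.75 and -0.41. Alternatives that changed only the fold or the share of cells could not alter a ratio. In zones, 3 members were higher in the main analysis, 0 with a fold of 2 and 5 with a UMI in at least 5% of cells, which added Notch3 and Hey1. At E9.5, 12 alternatives gave 2 to 4 members higher in the Epcam gate, 0 in the Twist1 gate and 3 to 4 in the Cdh5 gate. Pairs found together more often than expected were 0 in gated cells under all 4 alternatives, and in other cells 1 in the main analysis but 5 without thinning, 2 at 2500 UMIs and 4 where a gene needed 2 UMIs per cell. The cause of these changes was not tested. All these counts used the same kind of interval, which is too wide for the Notch1 pairs in gated cells. Median scaling shifted log2 ratios by under 0.1 in every comparison. Depth limits Dll1 and Hes5, with 5 and 46 UMIs in the gated cells.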
